A study of Mus musculus with 10 samples.

Results

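Promoter windows that were almost free of DNA methylation in the lung of saline-treated mice were described in all 10 mice of the study. A window was 1000 bp long, with a step of 500 bp, and it was taken as a promoter window where it overlapped the 1000 bp on either side of a RefSeq start site on chromosomes 1 to 19. A window was a member where every mouse had at least 20 CpG calls and the pooled calls of the 3 Saline mice were under 10% methylated. Of 81307 promoter windows with that depth, 44144 (54.3%) were members, out of 446336 windows of the whole table. They lay at 14295 of the 18302 genes with a covered promoter window (78.1%), and all covered promoter windows were members at 4185 genes. The members were thus chosen by their Saline values, so low Saline values are no finding, and comparisons with Saline are given below as values without a test.

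All mice were female BALB/c and the DNA came from lung tissue. Saline mice (n = 3) received saline only. OVA mice (n = 3) were sensitised to ovalbumin by intraperitoneal injection with an aluminium adjuvant and then challenged with ovalbumin through the nose, which gives an allergic airway inflammation. Herb mice (n = 4) were OVA mice that also took an ethanol extract of Descurainia sophia seeds by mouth, called DSE by the study. The SureSelect Methyl-seq assay captures chosen regions with RNA baits, and bisulfite then turns unmethylated cytosines into uracil, so that a methylated CpG is read as C and an unmethylated one as T. Each mouse had 306656737 to 410836272 CpG calls over the table, and 25.4% to 30.4% of them fell in member windows, where the median window had 1618 to 2373 calls. Overlapping windows share calls, and a lung sample is a mixture of cell types: a change in the share of a cell type and a change of methylation within cells cannot be told apart here.

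Most mammalian promoters lie in CpG islands, stretches that keep many CpGs because they are held free of methylation in the germ line and in nearly all tissues. Methylation is put on by DNMT3A and DNMT3B, copied at replication by DNMT1 and removed through oxidation by the TET enzymes. At the edges of an island, the shores, methylation climbs to the high level of the surrounding genome. Promoters with few CpGs are more often methylated and differ between cell types.

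The member windows ranged from dense islands to stretches with hardly any CpG, and 4 genes show this range beside the findings described below. The sequences are RefSeq GRCm38 (mm10), 200 bases each, 5′ to 3′ along the strand of the gene, with every CpG in capitals, and no RefSeq exon overlaps them. Tet2, which codes for a CpG-oxidising enzyme, has 40 CpGs in the bases before its start site at chr3:133544391-133544590 on the minus strand.
Tet2 promoter: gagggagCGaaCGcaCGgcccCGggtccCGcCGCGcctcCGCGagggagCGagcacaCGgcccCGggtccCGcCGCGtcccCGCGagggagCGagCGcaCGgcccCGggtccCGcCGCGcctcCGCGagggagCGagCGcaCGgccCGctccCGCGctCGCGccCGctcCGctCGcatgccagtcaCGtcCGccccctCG
At Klhl9, a substrate adaptor of a ubiquitin ligase, the bases before the start site at chr4:88722509-88722708 (minus strand) hold 18 CpGs.
Klhl9 promoter: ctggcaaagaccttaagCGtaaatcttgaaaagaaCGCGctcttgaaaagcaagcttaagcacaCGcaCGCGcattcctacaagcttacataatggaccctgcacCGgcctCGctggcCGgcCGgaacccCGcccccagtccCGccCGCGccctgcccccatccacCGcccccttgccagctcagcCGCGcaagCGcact
The centre of the next window upstream of Klhl9, chr4:88723401-88723600, holds 2 CpGs. Methylation was measured over the whole window, and its values are given further on.
Klhl9 flank: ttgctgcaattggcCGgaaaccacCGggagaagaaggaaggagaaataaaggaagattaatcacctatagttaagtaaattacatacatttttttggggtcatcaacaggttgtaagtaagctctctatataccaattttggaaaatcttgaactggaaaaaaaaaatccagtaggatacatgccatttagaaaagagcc
The centre of the Adck1 window, chr12:88359901-88360100 on the plus strand, holds 1 CpG. This window had the largest difference between Herb and OVA.
Adck1 window: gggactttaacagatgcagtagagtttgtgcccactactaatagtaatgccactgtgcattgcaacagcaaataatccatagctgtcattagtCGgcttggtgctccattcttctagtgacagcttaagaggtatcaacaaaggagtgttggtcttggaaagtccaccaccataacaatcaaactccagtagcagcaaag
The centre of an Esr1 window, chr10:4709901-4710100 on the plus strand, holds 6 CpGs. The window around it was among those that were higher in all OVA mice than in all Saline mice.
Esr1 window: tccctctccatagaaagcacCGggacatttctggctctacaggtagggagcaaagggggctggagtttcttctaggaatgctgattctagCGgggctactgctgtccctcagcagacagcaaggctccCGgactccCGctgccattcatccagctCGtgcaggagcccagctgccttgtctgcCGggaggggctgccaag

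In sequence, the members stood apart from the other promoter windows. The median number of CpGs per window was 48 in members, 17 in the 24938 promoter windows at 10% to under 60% in Saline and 13 in the 12225 windows at 60% or more. Median GC content was 55.7%, 49.1% and 47.1%, and the median ratio of observed to expected CpGs was 0.634, 0.306 and 0.238. Of promoter windows with fewer than 10 CpGs 12.4% were members, whereas of those with 80 or more it was 96.3%. GC content of at least 50% together with a CpG ratio of at least 0.6 was met by 50.6% of the members, 7.12% of the middle group and 1.01% of the high group.

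Motifs were searched on both strands in the RefSeq promoter sequences, which run over 300 bases from 250 before the start site. Of 22202 promoters of the start sites used, 10838 lay only in member windows and 1033 only in windows at 60% or more. The GC box core GGGCGG, bound by SP1 and its relatives, was in 70.1% of the member promoters, 15.6% of the highly methylated ones and 45.6% of all. The ETS core CCGGAAG was in 18.6%, 5.42% and 11.5%. Conversely, TATAAA was in 5.79% of the member promoters, 16.3% of the highly methylated ones and 12.3% of all. CCAAT, which does not hold a CpG, was in 38.0%, 43.1% and 38.0%, and the E-box CACGTG in 10.3%, 7.16% and 7.92%. The median number of CpGs was 23 in member promoters and 4 in the highly methylated ones, and the part of CpG content in these shares was not tested.

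Position followed the textbook shape of an island. Members made up 76.8% of the promoter windows centred within the 250 bp after the start site and 14.6% of those centred 1500 to 1250 bp before it. They joined into 13140 runs with a median length of 2000 bp, the longest being 6500 bp. Their own methylation was lowest just after the start site, at 2.08% ± 0.0365 (SD, n = 3) in Saline, 2.24% ± 0.133 (n = 3) in OVA and 2.47% ± 0.0769 (n = 4) in Herb mice. At 1500 to 1250 bp before the start it was 4.14% ± 0.108, 4.72% ± 0.158 and 5.13% ± 0.193. The order Saline, OVA, Herb of the group means held in every 250 bp step.

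**Figure D1:**
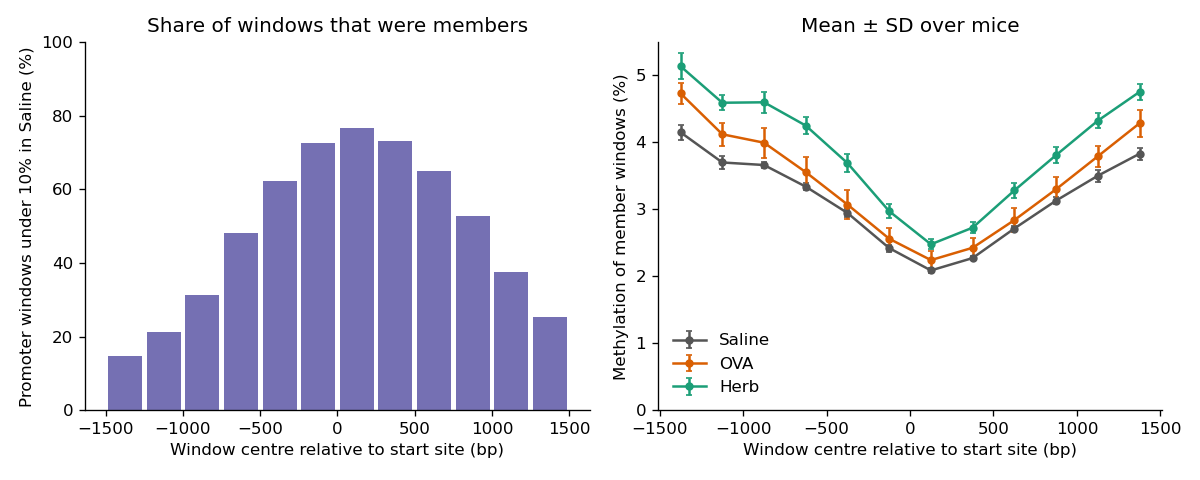
Left, share of promoter windows (%) that were members, by the distance of the window centre from the nearest start site in bp. Right, methylation (%) of member windows by the same distance, points and bars being the mean and SD over 3 Saline, 3 OVA and 4 Herb mice. The share peaks at 76.8% just after the start site, where methylation is lowest, and the Herb line lies above the other lines throughout.

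The genes with the most member windows were regulators with several start sites. Pax6, an eye and neural transcription factor, had 18 member windows between positions 105667001 and 105684000 of chromosome 2, with pooled levels of 3.27% in Saline, 3.57% in OVA and 3.55% in Herb mice. Bdnf, a neurotrophin, had 15 at 2.91%, 3.75% and 4.30%. Otx2, a head patterning factor, had 13 at 3.50%, 5.17% and 4.93%. By contrast, the 14 windows of Tgif1, a repressor in TGF-beta signalling, were at 1.61%, 1.57% and 1.60%, and the 14 of the splicing regulator Hnrnpf at 1.03%, 1.07% and 1.1%.

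Across all members the mean methylation of a window was 2.80%, 2.70% and 2.75% in the 3 Saline mice, 2.74%, 3.03% and 3.04% in the OVA mice and 3.36%, 3.47%, 3.43% and 3.23% in the Herb mice. Every Herb mouse was above every OVA and Saline mouse, while OVA 1 lay inside the Saline range. In group terms this was 2.75% ± 0.0497 (SD, n = 3), 2.93% ± 0.171 (n = 3) and 3.37% ± 0.107 (n = 4). Over pooled calls, in which deep windows weigh more, the levels were 2.46% ± 0.045, 2.57% ± 0.172 and 3.00% ± 0.116. Windows chosen by the same rule without 1 Saline mouse, so that this mouse had no part in the choice (44056 to 44268 windows), had a mean of 2.73% to 2.87% in the mouse left out, 2.92% to 2.97% in OVA and 3.36% to 3.41% in Herb mice. An unmethylated cytosine that bisulfite failed to turn into uracil would be read as methylated. The conversion rate was not examined here, and its part in these low levels was not tested.

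Few members left the low range. In pooled calls, 1305 members (2.96%) reached 10% in OVA and 2356 (5.34%) in Herb mice, while 21 and 52 reached 20%, and 1 and 3 reached 30%. Per mouse, 589 to 737 members were above 10% in Saline, 1068 to 1766 in OVA and 2326 to 2780 in Herb mice. Of the 1150 members at 9% to under 10% in Saline the median was 9.54% in OVA and 11% in Herb mice. For the 1075 windows just outside, at 10% to under 11%, it was 10.5% and 12.1%. Between mice of a group, the median SD of a member was 0.376 percentage points in Saline, 0.380 in OVA and 0.459 in Herb mice, against 0.321, 0.308 and 0.345 from counting calls alone. Averaged over members, however, the variance between mice was 2.40, 2.66 and 2.85 times that from counting in Saline, OVA and Herb.

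The comparison of Herb with OVA mice sets ovalbumin-challenged lungs with the extract against ovalbumin-challenged lungs without it. The study reported fewer inflammatory cells in fluid washed from the airways, and less infiltration around blood vessels, with the extract than without it. By that report the groups also differed in the degree of inflammation, and its part in the methylation differences was not tested. The methylation levels of these groups did not enter the rule that chose the members. A logistic model of the calls of each window was tested by a likelihood ratio test over all 437460 testable windows, and a call needed a Benjamini-Hochberg adjusted p under 0.01 and at least 10 percentage points. At this rule 0.898% of all tested windows were higher and 0.725% were lower in Herb. Among the members, 92 (0.208%) were higher and 0 lower. Members can only be called lower where OVA is at 10% or above, which 1305 were. The test takes every call as independent, without the spread between mice. An F test that scales the deviance by that spread called 0 members (4597 higher and 257 lower at an unadjusted p under 0.05), whereas the likelihood ratio test itself had 12024 higher and 1990 lower at an unadjusted p under 0.05.

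A second test, limma on log2 ratios of methylated to unmethylated calls with 1 added to each, uses the spread between mice. At an adjusted p under 0.05 of any size, limma called 0.0725% of all tested windows higher and 0.0169% lower in Herb, and 126 members (0.285%) higher and 1 lower. Of the 92 windows above, 28 passed both tests. Without a threshold, the median member differed by 0.161 percentage points between Herb and OVA, and 67.6% of the members were higher in Herb. The median over all windows with 20 calls was -0.0318, with 49.2% higher. Herb mice all lay above the OVA mice in 5452 members (12.3%) and all below in 576 (1.30%), against 5.67% and 4.59% of all windows. This shift was not particular to members. Of the promoter windows at 10% to under 60% in Saline, 61.3% were higher in Herb, with a median difference of 0.830 points. Herb mice lay all above in 13.2% of them and all below in 3.32%, and the likelihood ratio test called 2.65% higher and 0.577% lower. Of those at 60% or more, 41.9% were higher in Herb.

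**Figure D2:**
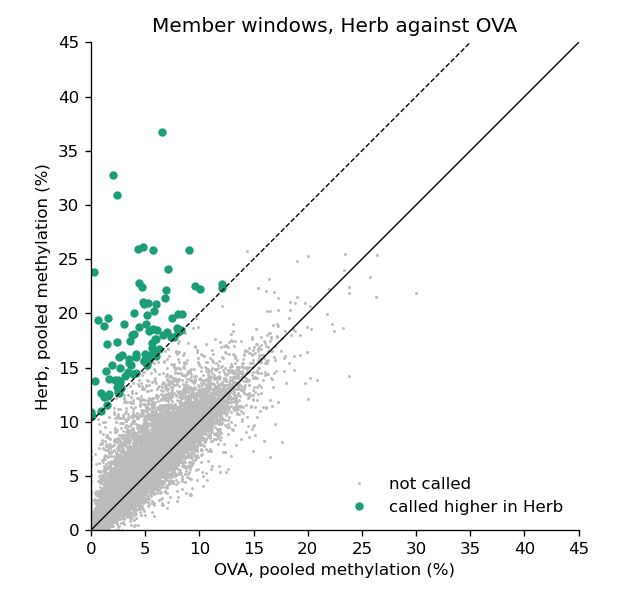
Pooled methylation (%) of each member window in 3 OVA mice (x axis) and 4 Herb mice (y axis). The solid line marks equal levels and the dashed line 10 percentage points more in Herb; green points are the 92 windows called higher in Herb, and no window was called lower.

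The windows that were higher in Herb belonged to 91 genes of many functions, and the difference was 10.0 to 30.7 percentage points with a median of 12.0. Adck1, a kinase-like mitochondrial protein, had the largest difference. In its window at chr12:88359501-88360500, centred 514 bp before the start site, the Saline mice had 1.1%, 2.91% and 2.56%, the OVA mice 2.27%, 0.80% and 3.75%, and the Herb mice 39.3%, 27.5%, 37.1% and 21.1%. The Herb mice were far above all other mice (30.7 points by pooled calls, likelihood ratio test adjusted p = 7.20e-37, limma adjusted p = 0.0449). The window had 80 to 382 calls per mouse.

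Esco2, a cohesin acetyltransferase needed for sister chromatid cohesion, had 7.69% to 8.67% in Saline and 4.62%, 9.38% and 5.35% in OVA mice in its window at chr14:65832501-65833500. The Herb mice had 44.7%, 32.1%, 41.5% and 25.9%, with no overlap (limma adjusted p = 0.0475). Mad2l1, a spindle checkpoint protein, had 7.07% to 12.9% in Saline mice, 6.15%, 1.88% and 4.88% in OVA mice and 27.4%, 27.9%, 26.5% and 22% in Herb mice (limma adjusted p = 0.0475). In this window the OVA mice also lay below the Saline mice. Of the 92 windows, 83 had a lower pooled level in OVA than in Saline, by a median OVA minus Saline difference of -1.67 points, and since a low OVA value helps a window to be called, this is a description only. Edaradd, the adaptor of the ectodysplasin receptor, had 1.40%, 1.83% and 4.24% in OVA and 28.6% to 33.1% in Herb mice, with 1.20% to 10.0% in Saline (limma adjusted p = 0.0196).

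A window with few CpGs lay at Ccdc181, a microtubule-binding protein of cilia and sperm. In the window at chr1:164274501-164275500, which holds 5 CpGs, the Saline mice had 0.714%, 1.43% and 1.1%, and the Herb mice 25.8%, 19.4%, 28.2% and 20.3%. OVA 1 and OVA 2 had no methylated call among 149 and 130, which allows up to 2.01% and 2.31%, and OVA 3 had 0.709%. This was a difference of 23.5 points (limma adjusted p = 0.00796). Ubxn1, a cofactor of the p97 ATPase, had 8.73% to 12.5% in Herb and at most 0.361% in OVA mice (limma adjusted p = 0.00772), and its Saline mice lay between, at 2.71% to 7.21%. The window of Tmem87b passed limma at an adjusted p of 0.00732 with 1.21% to 1.32% in OVA and 6.26% to 7.20% in Herb mice, but at 5.57 points it was under the limit of 10. It is named here after its values were seen, as is Thra, a thyroid hormone receptor, whose window was the member called lower by limma. At Thra the OVA mice had 4.29%, 2.68% and 1.59% and the Herb mice no methylated call among 111 to 176, which allows up to 1.70% to 2.70% per mouse (limma adjusted p = 0.0408).

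Lig4, the ligase that seals double-strand breaks in end joining, was deeply covered, with 1485 to 2326 calls per mouse. It had 3.46%, 4.23% and 3.74% in OVA mice and 21.5%, 17.5%, 19.5% and 13.4% in Herb mice, against 3.52% to 4.66% in Saline (limma adjusted p = 0.0253). Smim8, a small membrane protein with 1716 to 2760 calls, had 2.86% to 4.01% in OVA and 12.2% to 16.8% in Herb mice. Dnajc24, needed for making diphthamide, had at most 0.535% in OVA and 8.60% to 17.4% in Herb mice, and Ttc39c had 3.26% to 4.98% and 15.1% to 17.7%. Lrba, a protein of endosomal sorting, had 4.35% to 7.63% in OVA and 18.0% to 30.1% in Herb mice. Zfp322a, a zinc finger factor, had at most 4.22% in OVA and 10.6% to 30.1% in Herb mice, but did not pass limma (adjusted p = 0.128).

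At Abhd5, a coactivator of lipolysis, OVA mice had at most 1.38% and Herb mice 18.7% to 20.9% (limma adjusted p = 0.0196). Saline 2 and Saline 3 had 0.448% and 0.496%, whereas Saline 1 had 13 methylated of 27 calls (48.1%, 95% Wilson interval 30.7% to 66.0%, counting error only). The Herb values thus lay below that of Saline 1, which had few calls in this window, and above the rest. At Fam216a the OVA mice had 3.76% to 5.04% and the Herb mice 19% to 32.7% (limma adjusted p = 0.0374). For all windows in which 4 Herb mice lay above 3 OVA mice, an exact permutation test over mice gave a two-sided p = 0.0571, the smallest that this design allows.

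**Figure D3:**
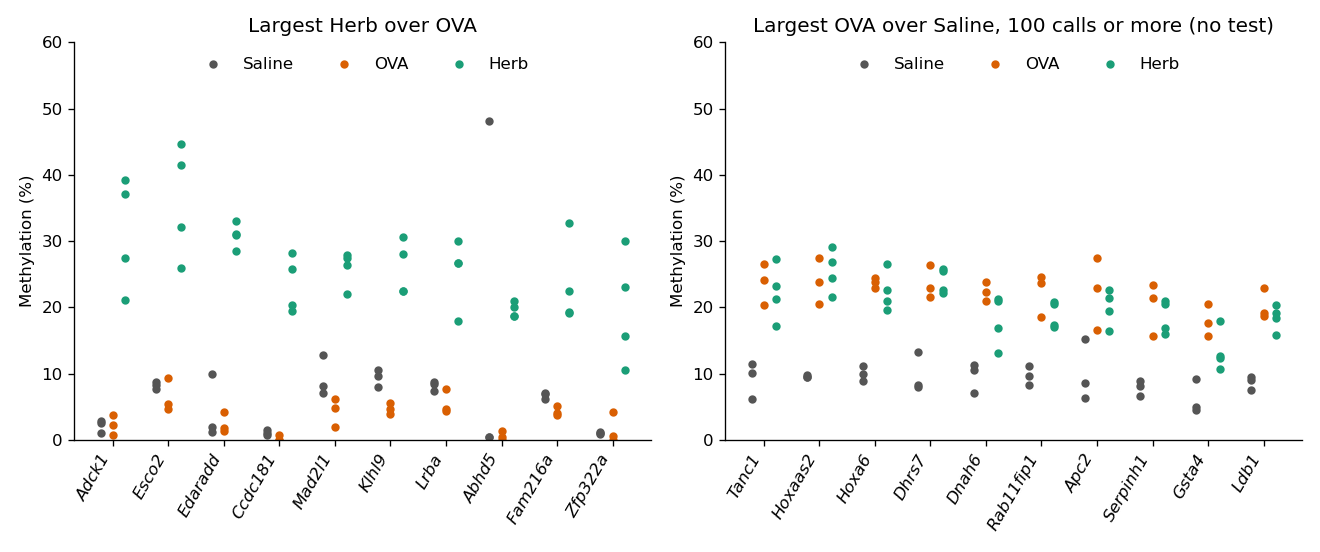
Methylation (%) of each mouse in named windows, 1 dot per mouse. Left, the 10 member windows with the largest Herb minus OVA difference, where Herb mice lie at 10.6% to 44.7% and OVA mice at most at 9.38%; the Saline dot at 48.1% for Abhd5 rests on 27 calls. Right, the 10 genes with the largest OVA minus Saline difference among windows with 100 calls or more in every mouse, where OVA and Herb dots mostly lie together.

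Sequence content and depth moved with the windows called higher in Herb. Their median GC content was 43.2% and their median CpG number 19, and the call rate fell from 2.50% of members under 40% GC to 0.0137% of members at 60% to under 65%. For each mouse, calls of a window were divided by its total calls in member windows, and the Herb mean over the OVA mean is called the depth ratio here. Its median was 1.00 over all members and 1.42 over the 92 windows, and 83 of the 92 had a ratio above 1. Over members, the median ratio was 1.57 under 40% GC and 0.899 at 70% or more. Herb libraries thus held relatively more calls in AT-rich windows: 5.39% to 6.17% of their member calls were from windows under 45% GC, against 4.23% to 4.67% in OVA and 4.98% to 5.11% in Saline mice.

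Divided by depth ratio, 2 of 1162 members (0.172%) under 0.8 were called higher, 26 of 37968 members (0.0685%) at 0.8 up to its inverse, 19 of 3088 (0.615%) from there to under 1.5, 27 of 1355 (1.99%) at 1.5 to under 2 and 18 of 571 (3.15%) at 2 or more. In the stratum around equal depth, with 86.0% of all members, mean methylation was 2.82% ± 0.171 (SD, n = 3) in OVA and 3.19% ± 0.0985 (n = 4) in Herb mice, and limma called 84 windows higher. Lig4, Smim8, Sf3b1, Abhd5 and Fam216a lay in this stratum, with ratios of 1.15, 1.03, 1.19, 0.991 and 1.05. These ratios are for whole windows, and depth could still differ within a window. The overlapping neighbour of Smim8, at 40.3% in Saline, had a depth ratio of 3.19, and that of Sf3b1, at 38.6%, had 2.95. Adck1, Ccdc181 and Mad2l1 had ratios of 2.64, 2.00 and 2.17. Among the 23614 members with at least 55% GC, 8 were called. The part of depth and base composition in the Herb gains was not tested, and since the labels give no library or sequencing batch, a batch and the group cannot be told apart.

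**Figure D4:**
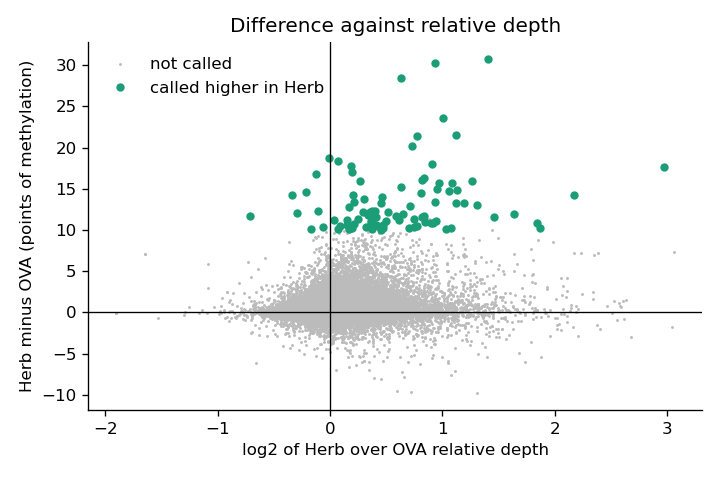
Herb minus OVA methylation (percentage points) of each member window against the log2 of its depth ratio, the relative depth in Herb over that in OVA mice. Green points are the 92 called windows, of which 83 lie right of the line at equal depth.

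Near some of the windows called higher in Herb, the depth of methylated neighbours differed between groups. Over all members, the neighbour with the higher Saline level had a median depth ratio of 1.07. Neighbours at 40% or more in Saline were not examined for the members that were not called. Of the 92 windows, 51 had a neighbouring window above 10% in Saline (55.4%, against 33.4% of all members). For 35 of them the neighbour was at 40% or more in Saline. In these neighbours, the median level was 66.4% in Saline, 66.5% in OVA and 68.1% in Herb mice, while the median of the mean calls was 103 in OVA and 364 in Herb mice, a median depth ratio of 4.04. Klhl9 shows the arrangement in the sequences above. Its member window at chr4:88722501-88723500 had 7.99% to 10.6% in Saline, 4.67%, 5.62% and 3.95% in OVA and 28.0%, 22.5%, 30.7% and 22.5% in Herb mice (limma adjusted p = 0.0196). The overlapping neighbour at 88723001 to 88724000 was at 61.6% to 72.2% in OVA and 62.4% to 68.9% in Herb mice, so its level was alike, but it had 216 to 365 calls in OVA and 894 to 1344 in Herb mice. Adck1, Ccdc181 and Zfp322a had neighbours that reached at most 7.03%, 3.93% and 1.20% in a Herb mouse.

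Against Saline, 42 members in 36 genes gained at least 10 percentage points in OVA mice, and 104 did in Herb mice. Over all windows with 20 calls this was 5.84% for OVA and 5.57% for Herb. A loss of 10 points was impossible for members by their choice, and no test was made. Of the 42, 36 had all OVA mice above all Saline mice, 25 had all OVA and Herb mice above, and 0 were called between Herb and OVA by the likelihood ratio test or by limma (adjusted p under 0.05). At 0.208% of all members called higher by the likelihood ratio test, 0 of 42 is near the background. At a minimum of 100 calls per mouse there were 23, and in each of these all OVA mice were above all Saline mice. The windows were chosen for low Saline and high OVA levels, so these counts of separated mice are a description only. Without OVA 1 64 members gained 10 points. The depth ratio of OVA over Saline had a median of 0.985 in the 42 windows.

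The HoxA cluster, whose genes set position along the body axis, held 3 of these windows. Hoxaas2, the antisense RNA of the cluster, had 9.78%, 9.51% and 9.54% in Saline mice, 20.5%, 23.9% and 27.5% in OVA mice and 21.6%, 29.1%, 24.4% and 26.9% in Herb mice at chr6:52165001-52166000, with 2441 to 3887 calls. Hoxa6 had 8.90% to 11.2% in Saline, 23.0% to 24.5% in OVA and 19.6% to 26.5% in Herb mice at chr6:52207501-52208500. The window of Hoxa2 at chr6:52163501-52164500 had 8.70% to 9.29%, 16.6% to 22.6% and 16.0% to 22.9%. In all 3, which were chosen for the gain in OVA, the Saline mice did not overlap with the others. The OVA and Herb mice overlapped. Over all 149 member windows of 40 Hox genes the mean was 4.32%, 4.09% and 4.34% in Saline, 4.98%, 5.60% and 5.53% in OVA and 5.21%, 5.63%, 5.31% and 5.46% in Herb mice.

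Other windows among the 42 had like values. Serpinh1, the collagen chaperone, had 6.68% to 8.90% in Saline, 15.7%, 23.3% and 21.4% in OVA and 16.0% to 21.0% in Herb mice. Frem1, a basement membrane protein, had 5.86% to 7.29%, 13.1% to 20.4% and 15.7% to 24.7%. Esr1, the estrogen receptor alpha, had 5.12% to 8.29% in Saline, 19.5%, 13.5% and 20.4% in OVA and 12.7% to 19% in Herb mice at chr10:4709501-4710500. Ldb1, an adaptor of LIM domain factors, had 7.61% to 9.54%, 18.6% to 22.9% and 15.9% to 20.3%. The scaffold gene Tanc1 had 6.16% to 11.4%, 20.4% to 26.6% and 17.3% to 27.3% in its window at chr2:59613001-59614000.

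At 30 of the 42 windows the pooled level was lower in Herb than in OVA mice. The 42 were chosen for high OVA values, so this count is a description only. Fmo2, the main flavin monooxygenase of lung, had 8.24%, 4.95% and 3.31% in Saline, 13.2%, 19.7% and 17.5% in OVA and 7.56%, 9.59%, 9.65% and 12.0% in Herb mice. The likelihood ratio test of Herb against OVA gave an adjusted p = 0.00308 at 7.19 points, under the limit of 10, and limma an adjusted p = 0.213. Cfi, complement factor I, had 9.42% to 10.6% in Saline, 18.9% to 21.2% in OVA and 13.9% to 17.3% in Herb mice (limma adjusted p = 0.543). Neither difference passed a call rule.

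The highest pooled OVA levels among members rested on few calls. Gm30381 had 6.76% to 10.1% in Saline and 23.4%, 32.8% and 33.3% in OVA mice with 45 to 80 calls, and Gm51271 had 2.33% to 4.0% and 21.4% to 32.2% with 25 to 112 calls. Their Herb mice spread from 7.69% to 31.1% and from 16.9% to 40.0%. Nod1, a sensor of bacterial peptidoglycan, had 3.17% to 14.5%, 18.6% to 36.9% and 9.82% to 27.9%. The spread between mice was wide in all 3 genes.

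Gene lists were compared by the levels of their member windows, set beside all members. Developmental transcription factors, targets of Polycomb in many tissues, had member windows at 139 of 143 covered genes. Mean methylation of their 651 windows was 3.40%, 3.26% and 3.42% in Saline, 3.80%, 4.16% and 4.19% in OVA and 4.05%, 4.28%, 4.15% and 4.10% in Herb mice. Saline mice were all below the others, and OVA and Herb mice overlapped. With 1 Saline mouse left out of the choice, that mouse had 3.27% to 3.46%, against 3.77% to 4.2% in OVA mice. The median pooled level was 2.83%, 3.30% and 3.38% in Saline, OVA and Herb, against 1.70%, 1.74% and 2.01% over all members. In the Herb to OVA comparison 0 of the 651 were called (limma, 0 higher at an adjusted p under 0.05), which at a rate of 0.208% over all members is near the background, and the median difference was 0.0669 points, against 0.161 for all members.

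Cytosolic ribosomal proteins had member windows at 71 of 71 covered genes, with 208 windows. Their mean was 2.08%, 2.13% and 1.98% in Saline, 1.87%, 1.99% and 1.96% in OVA and 2.34%, 2.27%, 2.16% and 2.10% in Herb mice, so that the OVA mice were not above Saline and the Herb mice were above OVA. Proteasome subunits (31 of 31 genes, 103 windows) were at 2.25% ± 0.0850 (SD, n = 3), 2.10% ± 0.0716 (n = 3) and 2.84% ± 0.155 (n = 4). The respiratory chain (62 of 63 genes, 181 windows) was at 2.12% ± 0.0425, 1.97% ± 0.206 and 2.50% ± 0.159. Cell cycle and replication genes (48 of 48) were at 2.15% ± 0.0192, 1.92% ± 0.0436 and 2.22% ± 0.154. In these 4 lists 0 windows were called between Herb and OVA by the likelihood ratio test, and 0 by limma at an adjusted p under 0.05, also near the background of 0.208% (limma 0.285%) of all members.

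**Figure D5:**
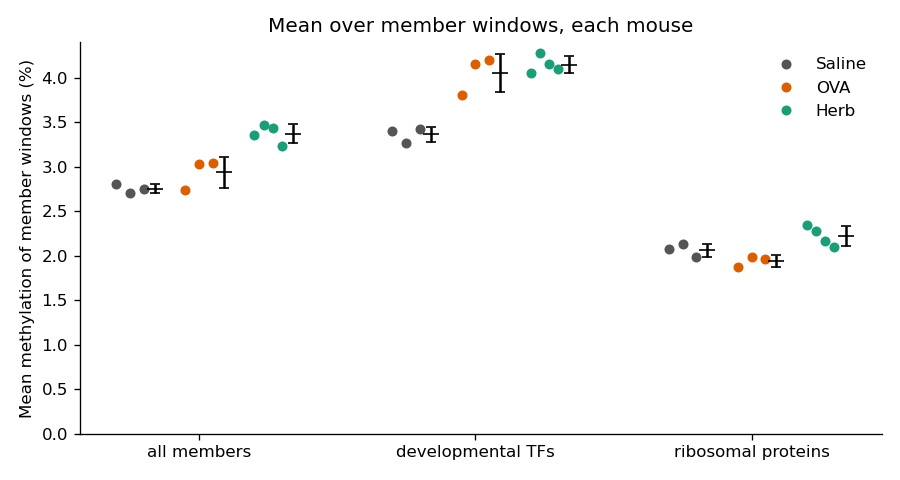
Mean methylation (%) over member windows, 1 dot per mouse, for all members, developmental transcription factors (TFs) and cytosolic ribosomal proteins. Black marks are the mean and SD over 3 Saline, 3 OVA and 4 Herb mice; OVA mice lie above Saline for developmental TFs and not for ribosomal proteins.

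Among splicing factors (44 of 44 genes, 157 windows) 1 window was called (0.637%), and at 0.208% of all members a single call is near the background. Sf3b1, a core subunit of the U2 particle, had 2.40% to 5.70% in Saline, 2.54%, 2.90% and 1.94% in OVA and 11.5%, 14.0%, 20.3% and 11% in Herb mice (limma adjusted p = 0.0396). The NF-kB and interferon list (44 of 46 genes, 153 windows) likewise had 1 (0.654%), which is read the same way. Ifit2, an interferon-induced RNA-binding protein, had 8.01% to 9.66% in Saline, 6.21%, 6.78% and 5.04% in OVA and 25.7%, 22.1%, 18.0% and 16.9% in Herb mice (limma adjusted p = 0.0460, depth ratio 2.18). The mean of this list was 2.57% ± 0.0414 (SD, n = 3), 2.29% ± 0.104 and 2.84% ± 0.241 (n = 4) in Saline, OVA and Herb. Immediate early and stress genes (44 of 45 genes, 209 windows) had 0 calls, also near the background. Dusp1, a MAP kinase phosphatase, was named for its high OVA level. It had 7.26% to 10.2% in Saline, 13.7% to 18.6% in OVA and 13.5% to 17.7% in Herb mice. Over the windows of the list, the median OVA minus Saline difference was 0.0503 points.

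Allergic cytokines, chemokines and receptors had members at 27 of 41 covered genes (65.9%) and 0 calls over 91 windows. At 0.208% of all members called, this count is near the background. Il33, the epithelial alarmin, had 2 windows named by the rules. The nearer, centred 112 bp before the start, had 2.57% to 4.03% in Saline, 3.10% to 4.89% in OVA and 2.83% to 5.42% in Herb mice, so the groups overlapped. The farther had 4.29% to 6.78%, 6.12% to 18.8% and 6.14% to 13.0% at 44 to 169 calls. Gata3, the master factor of Th2 cells, was at 1.57% or less in every mouse.

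The DNA methylation and Polycomb machinery had members at 42 of 43 genes, with 0 calls over 169 windows, near the background of 0.208% of all members. Dnmt3a, a de novo methyltransferase, had 6.05%, 7.09% and 6.36% in Saline, 4.23%, 5.12% and 5.43% in OVA and 5.55%, 5.36%, 4.99% and 3.54% in Herb mice, with all Saline mice above the rest. Tet2 stayed at 0.162% to 1.04% over all mice. Pcgf2, a Polycomb ring finger protein, was named for its high OVA level. It had 4.89% to 7.34% in Saline, 10.6%, 16.2% and 16.1% in OVA and 12.6% to 22.6% in Herb mice. Over the windows of the list, the median OVA minus Saline difference was -0.0172 points. Of housekeeping genes often used as controls, Actb was at 0.734% to 1.23% over all mice and Gapdh at 4.36% to 9.67%. The lung factor Nkx2-1 was at 1.79% to 3.61%. In these 3 genes the groups overlapped.

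Lists of germline and cell type genes show where members were absent. Germline genes, silenced by methylation in the body, had members at 2 of 32 genes (Stag3 and Dazl), and all their covered promoter windows had a mean of 75% ± 0.874 (SD, n = 3) in Saline. T and NK cell markers and eosinophil and mast cell markers had no member window, at 5 and 10 covered genes. Pan-leukocyte markers had members at 3 of 13 genes. Over all 67 covered promoter windows of that list, mean methylation was 51.4%, 51.8% and 50.3% in Saline, 42.3%, 39.8% and 38.2% in OVA and 41.9%, 39.7%, 42.2% and 38.4% in Herb mice, with all Saline mice above the others. Eosinophil and mast cell markers were at 54.0% ± 1.72 (SD, n = 3) in Saline, 49.7% ± 1.83 (n = 3) in OVA and 48.5% ± 1.95 (n = 4) in Herb mice, and the 8 windows of neutrophil markers at 39.4% ± 0.735, 36.0% ± 0.697 and 36.1% ± 1.33. For macrophage and monocyte and for B cell markers the Saline and OVA mice overlapped. Macrophage and monocyte markers were at 47.3% ± 0.643, 47.6% ± 1.12 and 45.7% ± 0.752, B cell markers at 25.9% ± 0.642, 26.5% ± 0.949 and 26.9% ± 0.227, and T and NK cell markers at 74.5% ± 0.730, 72.6% ± 1.34 and 73.3% ± 1.04.

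Some lists of resident cell markers were higher in OVA than in Saline mice and others were not. Over all covered promoter windows, fibroblast and smooth muscle markers were at 18.6% ± 0.828 (SD, n = 3) in Saline, 21.9% ± 1.1 (n = 3) in OVA and 22.4% ± 0.792 (n = 4) in Herb mice. Lung endothelium was at 18.3% ± 0.297, 21.5% ± 1.29 and 21.2% ± 0.286, and epithelium at 22.5% ± 0.792, 25.2% ± 1.38 and 25.3% ± 0.930. Alveolar type 1 cell markers were at 18.8% ± 0.653, 21.4% ± 1.22 and 20.4% ± 0.780. In contrast, alveolar type 2 cell markers were at 33.1% ± 1.15, 33.4% ± 0.293 and 33.5% ± 1.29, and club, goblet and ciliated cell markers at 30.8% ± 0.518, 30.9% ± 1.55 and 32.6% ± 0.438, with overlap between Saline and OVA mice in both lists. In the member windows of the fibroblast list (32 windows of 9 genes) the mean was 4.17%, 4.05% and 4.64% in Saline, 5.07%, 6.08% and 6.14% in OVA and 5.51%, 6.38%, 5.86% and 6.46% in Herb mice, again with all Saline mice below. Macrophage and monocyte markers had members at 2 of 7 covered genes, neutrophil markers at 1 of 2 and B cell markers at 3 of 6. The part of these marker lists in the OVA gains was not tested.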

How the data were processed

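Lung DNA of 10 mice (3 Saline, 3 OVA, 4 Herb) was measured by Methyl-seq. Per the labels, the authors used cutadapt 1.10, Bismark 0.19.0 and methylKit 1.0.0 with mm10. The deposited values are counts per window and mouse, not normalized: CpG calls, methylated and unmethylated. Each window had at least 10 calls in every mouse; calls of 1 molecule are not independent, so intervals and limits from counts cover counting error only.

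The members and gene lists were chosen with earlier results of these data known. Windows were matched to RefSeq NM and NR start sites of GRCm38 and assigned to the nearest one. Pooled levels divide summed methylated calls by summed calls; means and SDs are over mice. Herb was compared with OVA with logistic models of the calls, tested by likelihood ratio (scipy 1.17.1), where at least 2 mice per group had 20 calls, and by limma 3.58.1 on M-values with a pseudocount of 1, in R 4.3.3, both adjusted by Benjamini-Hochberg over 437460 windows. The likelihood ratio and F tests were checked on simulated calls. The check of limma used simulated M-values of equal variance, not calls, so it did not cover shallow windows or windows without methylated calls. Named windows were the 10 regions with the largest difference per direction, the 5 highest in OVA and in Herb and the called windows that passed limma (up to 10). Also named were the genes with the most windows, fixed control genes and gains of 10 points in OVA. For each gene list, the called windows were named, or otherwise windows with the highest pooled OVA levels. Replicates are separate mice. Alternatives included other call minimums, thresholds, tests, a replicate block and each mouse left out. The RNA-seq of the study was not used here. Some named windows and a promoter sequence are not reported here.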

Additional observations from a re-analysis of the deposited data

Results flagged for a closer look

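In groups of 4 mice a value was marked where the gap of the highest or lowest Herb mouse to its neighbour relative to the range of the group exceeded Dixon's limit at the 95% level. Of 127 values tested, 6 passed, and chance alone marks about 1 in 20. At the Cfap97d1 window, called higher in Herb, 1 Herb mouse had 14.0% and the others 10.7% to 11.1%. At Hopx 1 Herb mouse had 13.5% and the others 12.3% to 12.5%. At Elf3 1 Herb mouse had 12.4% and the others 11.3% to 11.4%. At Osbpl5 1 Herb mouse had 27.2% and the others 15.8% to 17.6%. At Cfi, in 2 overlapping windows with the same calls, 1 Herb mouse had 13.9% and the others 17.2% to 17.3%. The cause was not tested in any of these windows.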

How the results depend on the processing

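The number of windows that differed between Herb and OVA moved with the test and with the size limit. In place of 92 member windows higher in Herb, the F test with a scale factor gave 0, limma at an adjusted p under 0.01 and 10 points gave 2, and limma at an adjusted p under 0.05 without a size limit gave 126, with 1 lower in place of 0. A limit of 5 points gave 575 higher and 15 lower, and 20 points gave 7 higher. Every second window gave 47 higher of 22134 members, by its own construction. Restricted, after the data were seen, to a depth ratio of 0.8 up to its inverse, there were 26 higher, and to at least 55% GC there were 8. Leaving out 1 mouse gave 72 to 115 higher and 0 to 4 lower. For the replicate block, the deviations of same-numbered mice correlated at 0.0783, 0.0174 and 0.0114 over members. These weak correlations show no clear pairing by number, and pairing was not tested further. The block kept 92 higher in the likelihood ratio test, and in limma at an adjusted p under 0.05 it gave 0 higher (6156 at an unadjusted p under 0.05). The cause was not tested.

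The mean pooled level moved from 2.46%, 2.57% and 3.00% in Saline, OVA and Herb to 1.70%, 1.79% and 2.05% in members under 5% in Saline, and to 2.75%, 2.93% and 3.37% as a mean over windows; the order of the groups was the same under each setting. Gains of 10 points over Saline in OVA numbered 42, and 41 to 64 with 1 mouse left out. At Lrrcc1, with 27 to 79 calls, the OVA minus Saline difference of 16.5 points was -4.03 without OVA 3 and 24.9 without OVA 2. Depth limits the shallow windows: 19 of the 42 gains had a mouse with fewer than 100 calls.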

Other observations

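Il12b, a subunit of IL-12 and IL-23, was among the 92 windows higher in Herb, with 10.5 points at a depth ratio of 1.06 (limma adjusted p = 0.0510). It is named here after its values were seen, and no enrichment was tested.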
